A study of Mus musculus with 6 samples.

Results

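Myc and 38 genes of nucleolar ribosome assembly were followed in bone marrow LSK cells, the lineage-negative, Sca-1-positive, Kit-positive sorted population in which hematopoietic stem cells and multipotent progenitors are found. The genes were taken by symbol from a list of RNA polymerase I components, small nucleolar ribonucleoprotein (snoRNP) proteins and assembly factors of both ribosomal subunits. All 39 were found among the 16403 genes of the deposited table, and all 39 passed the filter on low counts that left 12564 genes for testing. The cells came from C57BL/6 mice with ligature-induced periodontitis (LIP, 3 libraries) and from unligated mice of the same strain (NL, no ligature, 3 libraries). In LIP a ligature around a molar retains bacteria and provokes inflammation of the gum and loss of bone. Marrow was taken on day 7, LSK cells were sorted by flow cytometry, and each library pooled 3 mice, so differences between single animals cannot be read from these data.

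Ribosomes are assembled mainly in the nucleolus, where RNA polymerase I transcribes one long precursor of the 18S, 5.8S and 28S ribosomal RNAs. Box C/D snoRNPs methylate this precursor, box H/ACA snoRNPs isomerize its uridines, and separate sets of factors then fold and cut the small and large subunits out of it. MYC, a transcription factor that binds E-box DNA as a dimer with MAX, is known to raise the expression of many of these genes, and in blood progenitors MYC and ribosome production are both known to increase when quiescent stem cells begin to divide.

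The libraries held between 17780810 and 18841090 estimated counts. Each of the 39 genes had between 753 and 26375 counts in a library, so none was near the limit of detection. Kit, one of the sort markers, was measured at 581 ± 9.52 CPM (counts scaled to the library size) in LIP and 512 ± 3.73 CPM in NL (SD, n = 3 each), a log2 fold change of 0.18 with an adjusted p of 8.16e-06 by edgeR's quasi-likelihood test. Ly6a, which encodes Sca-1, was at 37.0 ± 2.40 CPM in LIP and 38.7 ± 0.803 CPM in NL, a log2 fold change of -0.07 that was not called (edgeR adjusted p = 0.386). Of 11 LSK and stem cell markers, Kit and Ly6a among them, 3 were higher and 0 lower. Their summed level was 2851 to 2890 CPM in LIP libraries and 2757 to 2788 CPM in NL libraries. Markers counted as higher or lower in this paragraph had an adjusted p below 0.05 in edgeR's test. Their counts stand beside 14.1% of all tested genes called higher and 15.8% called lower. All 6 granulocyte-monocyte progenitor markers tested were higher in LIP, with a summed level of 7688, 7618 and 8016 CPM in the LIP libraries and 6292, 6304 and 6286 CPM in the NL libraries. All 7 neutrophil markers tested were also higher, with a summed level of 307 to 328 CPM in LIP libraries and 215 to 231 CPM in NL libraries, while Ly6g, the defining neutrophil marker, had at most 3 counts in a library. All 5 monocyte markers were higher, with a summed level of 925 to 952 CPM in LIP libraries and 699.8 to 716 CPM in NL libraries. Of 7 B-lineage markers 5 were higher, with a sum of 83.8 to 86 CPM in LIP libraries and 66.6 to 67.8 CPM in NL libraries. Of 7 T and NK cell markers 3 were higher (sum of 152 to 166 CPM in LIP libraries and 135 to 145 CPM in NL libraries), and of 6 megakaryocyte markers 3 (161 to 173 CPM in LIP libraries and 153 to 166 CPM in NL libraries). Of 8 erythroid markers 1 was higher and 3 were lower (419.8 to 471 CPM in LIP libraries and 474 to 489 CPM in NL libraries). In bulk RNA, fewer cells of a type and less RNA per cell cannot be told apart, and the part of these markers in the results on nucleolar genes was not tested.

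The nucleolar genes did not move as a block. Of the 39 genes, 6 were higher in LIP and 8 were lower at an adjusted p below 0.05 in edgeR's quasi-likelihood test, and 25 were not called. The 14 called genes are 35.9% of the set, beside 29.9% of all tested genes called. The 6 higher genes stand beside a background of 14.1% of tested genes called higher, and the 8 lower genes beside 15.8% called lower. Scaled by total counts alone, all tested genes divided into 2756 higher and 1301 lower, in place of 1776 higher and 1984 lower, and the 39 genes into 10 higher and 5 lower. Without NL-3, 3 of the 39 genes were called higher. DESeq2 called 4 of them higher and 6 lower, without Nop14, Rrs1, Emg1 and Nip7. The median log2 fold change of the set was 0.02, and that of all tested genes was -0.0007. The changes were small: the largest rise was 1.11-fold, in Rrp1b, and the largest fall was 1.16-fold, in Nop58, both without an offset for length or GC content. Among called genes the median size of the log2 fold change was 0.13 in the set and 0.20 in the whole table, and 188 called genes of the whole table but 0 of the set exceeded 1.5-fold. The 95% intervals of all 39 genes reached no farther than 1.22-fold in either direction. Among the called genes, Polr1b, Rrp1b, Emg1 and Nip7 had deposited counts that were not whole in every library, and their values are less certain.

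**Figure D1:**
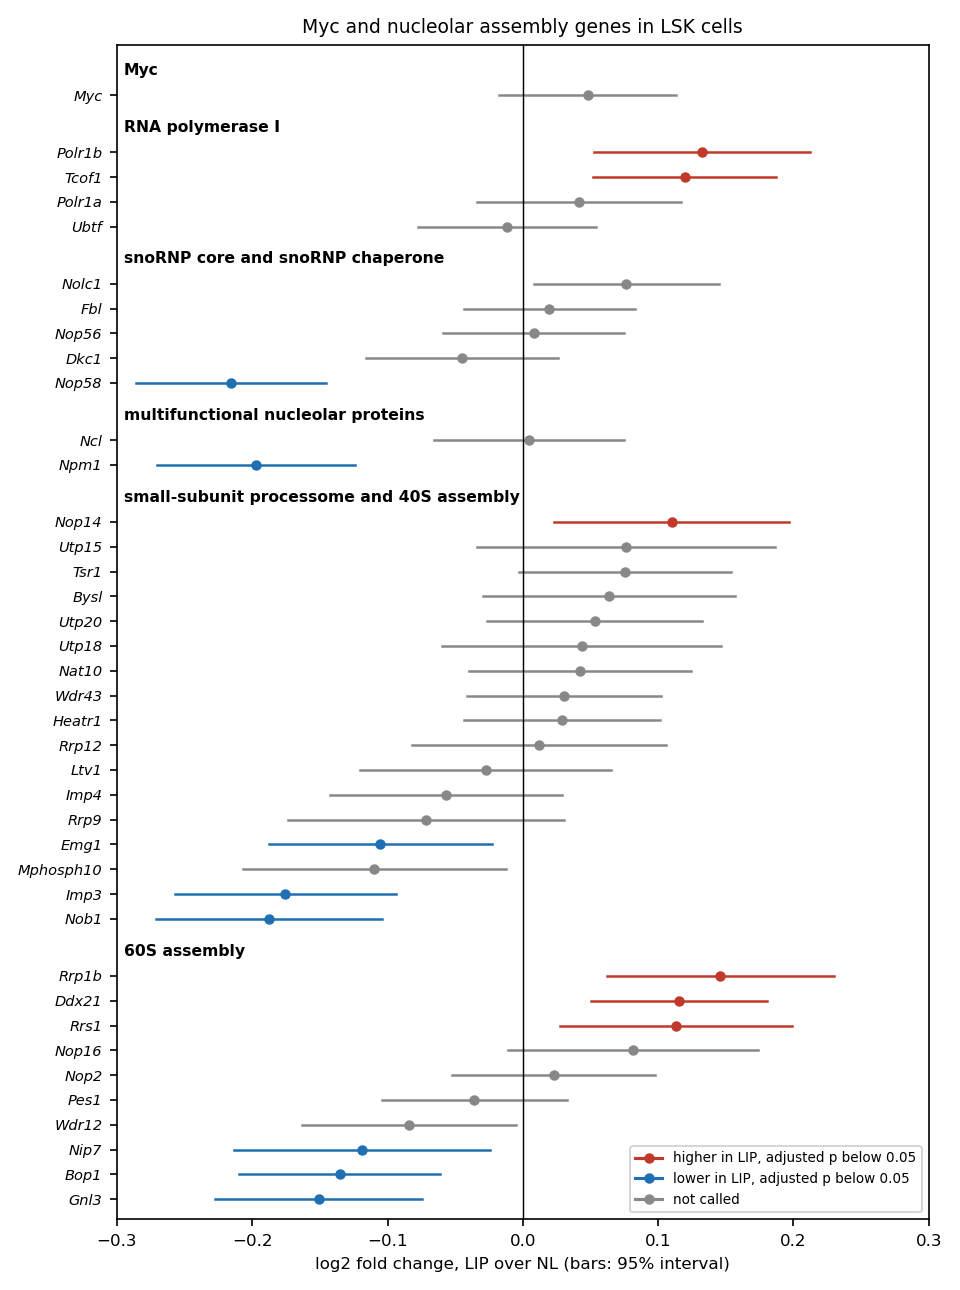
Log2 fold change, LIP over NL, of Myc and the nucleolar genes, grouped by role, with bars for the 95% interval. Red points are the 6 genes called higher, blue points the 8 called lower and grey points the 25 not called; no interval reaches beyond 0.29 on the log2 scale.

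The 3 LIP libraries and the 3 NL libraries separated completely for 16 of the 39 genes. In 8 genes every LIP library was above every NL library, beside 19.9% of all tested genes, and in 8 every LIP library was below, beside 21.0%. Bysl and Tsr1 separated upward and Wdr12 downward without being called, and Nip7 was called although its groups overlapped. The libraries of a group agreed closely: the median coefficient of variation over the set was 3.06% in LIP and 3.11% in NL, and over all tested genes it was 4.40% in LIP and 4.13% in NL. The summed level of the 39 genes was 7009, 7176 and 6888 CPM in the LIP libraries and 7215, 7294 and 7075 CPM in the NL libraries. The groups overlap in this sum, since LIP-2 lies above NL-3, and an exact permutation test gave p = 0.2 (two-sided), where 3 libraries against 3 cannot give less than 0.1. The means of the sum differ by 170.2 CPM, and the means of Npm1 alone differ by 184 CPM.

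Per transcript length, the set spanned a wide range. In the authors' TPM, Npm1 was the most abundant at 1733 ± 78.0 in LIP and 1814 ± 106 in NL (SD, n = 3 each). Fbl came next at 500.2 ± 7.73 TPM in LIP and 451 ± 6.11 TPM in NL. Ncl had 339 ± 24.6 TPM in LIP and 307 ± 4.09 TPM in NL, and Myc followed at 289 ± 8.4 TPM in LIP and 256 ± 10.4 TPM in NL. These 4 genes held the same rank in both groups, and 23 of the 39 genes did so in all. At the low end, Utp20 had 18.1 ± 0.688 TPM in LIP and 16.0 ± 0.178 TPM in NL, and the highest level was 95.5 times the lowest in LIP and 113 times in NL. The median log2 ratio of TPM, LIP over NL, was 0.13 over all tested genes and 0.15 over the set, so TPM is used here for levels between genes and CPM for differences between groups.

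**Figure D2:**
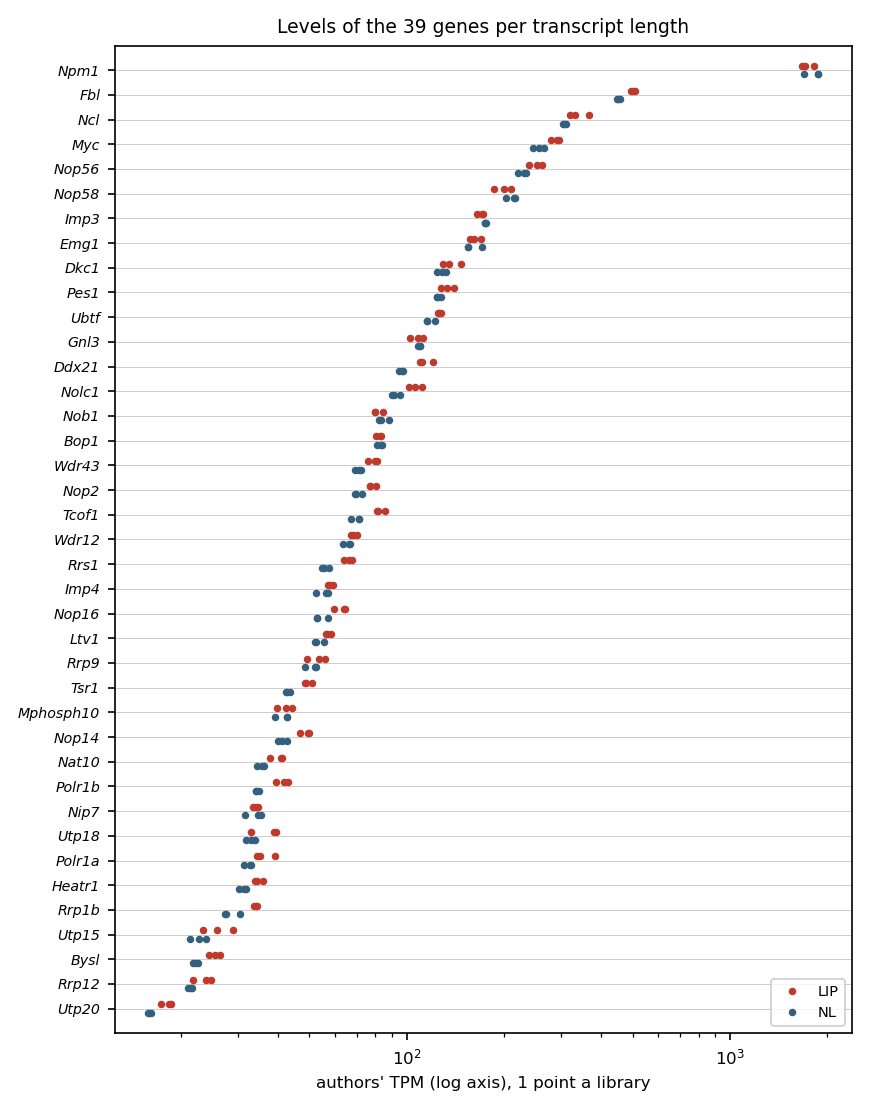
The authors' TPM of the 39 genes on a log axis, 1 point for each library, LIP above NL in each row, ordered by the mean of the NL libraries. Npm1 sits alone at the top at 1733 in LIP and 1814 in NL, and Utp20 is lowest at 18.1 in LIP and 16.0 in NL.

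Myc itself (chr15:61985341-61990361, GRCm38) was well expressed and was not called. Its level was 367, 369.6 and 385 CPM in the LIP libraries and 375, 349 and 361 CPM in the NL libraries. The groups overlap, with NL-1 above 2 of the LIP libraries. The log2 fold change was 0.05 with a 95% interval of -0.02 to 0.11 (edgeR adjusted p = 0.286). Scaled by total counts alone Myc was called, with a log2 fold change of 0.09 (edgeR adjusted p = 0.0257). Mycn, its paralog, was lower in LIP at 51.4 ± 2.64 CPM against 63.7 ± 1.45 CPM in NL, with a log2 fold change of -0.31 (edgeR adjusted p = 3.1e-07).

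Promoter windows of 250 bases before to 50 after a transcript start were taken from a RefSeq table on GRCm38.p6, which held 32 of the 39 genes, 3 of them with more than 1 window. For Ncl, unlike the others, the end of the window was not found in the 5′ part of its transcript, and Ncl counts here as a gene without the E-box letters. The letters CACGTG, the canonical E-box of MYC and MAX, which reads the same on both strands, were found in a window of 8 of these 32 genes (25%). The same letters were in a window of 2187 of the 27025 genes in the whole RefSeq table (8.09%) and of 1174 of the 10088 tested genes it held (11.6%). The 8 genes were Imp4, Nop2, Utp18, Pes1, Wdr43, Tsr1, Ltv1 and Utp20. None of these 8 was called, although Tsr1 was with scaling by total counts alone (edgeR adjusted p = 0.0146). Of the 32 genes with a window, 10 were called, beside 29.9% of all tested genes. The called genes Tcof1, Npm1, Bop1 and Rrs1 had no window, so the letters are unknown for them. With only 8 genes, these counts cannot show whether the letters go with fewer calls. This was not tested over all tested genes with the letters. A match is a description of letters and shows no binding. Windows of a pair of genes with the letters, Nop2 and Pes1, and of a pair of called genes without them, Nop58, a gene that fell, and Ddx21, a gene that rose, are printed below, 5′ to 3′ on the strand of the gene, with the E-box letters in capitals. Nop2 is on the plus strand at chr6:125131633-125131932, Pes1 on the plus strand at chr11:3963725-3964024, Nop58 on the plus strand at chr1:59684756-59685055, around a transcript start that lies inside the RefSeq gene span given further on, and Ddx21 on the minus strand at chr10:62602249-62602548.
Nop2: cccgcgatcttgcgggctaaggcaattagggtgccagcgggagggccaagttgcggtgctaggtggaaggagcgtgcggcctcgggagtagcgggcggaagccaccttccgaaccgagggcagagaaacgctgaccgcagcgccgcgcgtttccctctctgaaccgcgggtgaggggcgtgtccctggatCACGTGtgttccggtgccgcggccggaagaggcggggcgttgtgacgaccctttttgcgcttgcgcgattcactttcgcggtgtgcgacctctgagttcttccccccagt
Pes1: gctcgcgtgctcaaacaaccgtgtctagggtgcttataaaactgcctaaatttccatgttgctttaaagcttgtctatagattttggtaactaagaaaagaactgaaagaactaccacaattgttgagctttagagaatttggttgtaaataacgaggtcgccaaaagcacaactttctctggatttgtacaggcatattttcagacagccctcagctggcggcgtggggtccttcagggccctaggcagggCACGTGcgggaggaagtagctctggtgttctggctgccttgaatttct
Nop58: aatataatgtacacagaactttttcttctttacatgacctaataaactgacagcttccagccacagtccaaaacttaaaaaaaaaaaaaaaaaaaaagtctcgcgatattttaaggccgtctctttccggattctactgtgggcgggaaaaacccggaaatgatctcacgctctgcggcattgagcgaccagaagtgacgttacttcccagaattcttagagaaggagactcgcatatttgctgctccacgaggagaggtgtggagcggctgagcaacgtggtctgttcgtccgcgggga
Ddx21: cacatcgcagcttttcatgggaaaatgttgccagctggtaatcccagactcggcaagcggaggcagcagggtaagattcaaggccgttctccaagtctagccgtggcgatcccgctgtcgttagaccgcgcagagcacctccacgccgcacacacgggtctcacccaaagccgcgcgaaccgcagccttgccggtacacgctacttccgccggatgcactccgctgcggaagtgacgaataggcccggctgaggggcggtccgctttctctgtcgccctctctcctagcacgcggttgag
In Nop2 the first E-box letter is 60 bases before the transcript start, and in Pes1 it lies at base 3 of the transcribed part. The windows of Nop58 and Ddx21 hold no such letters, which says nothing of sites elsewhere.

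Among the 4 genes of RNA polymerase I transcription, 2 were higher in LIP. Polr1b, which encodes a catalytic subunit of the polymerase (chr2:129100970-129128060), had 87.1, 91.9 and 91.6 CPM in LIP libraries and 81.4, 82.1 and 83.4 CPM in NL libraries. Every LIP library was above every NL library, and the log2 fold change was 0.13 (SE 0.040, edgeR adjusted p = 0.00809), or 0.08 and not called with an offset, a correction in each library for the trend over all genes, for transcript length and GC content (edgeR adjusted p = 0.107). Tcof1 encodes treacle, which recruits the polymerase machinery to ribosomal DNA (chr18:60813738-60848983), and it had 206, 209.6 and 205 CPM in LIP libraries and 193, 195 and 183 CPM in NL libraries. Its groups did not overlap either, and the log2 fold change was 0.12 (SE 0.034, edgeR adjusted p = 0.00463), but without NL-3 it was 0.09 and with the same offset 0.03, neither of which was called (edgeR adjusted p of 0.0621 and 0.536). Polr1a, the largest subunit, was at 117, 124 and 115 CPM in LIP libraries and 113, 116 and 117 CPM in NL libraries, with overlapping groups and a log2 fold change of 0.04 (edgeR adjusted p = 0.438). Ubtf, which holds ribosomal DNA in an active state, was at 240.3 ± 1.2 CPM in LIP and 242 ± 8.49 CPM in NL (SD, n = 3 each), a log2 fold change of -0.01 (edgeR adjusted p = 0.83), but with the offset for length and GC content it was -0.08 and called (edgeR adjusted p = 0.0339).

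Of the 5 snoRNP genes, 1 fell and 4 were not called. Nop56, Nop58 and fibrillarin (Fbl), the methyltransferase, belong to the box C/D particle. Nop58 (chr1:59684961-59711510) was at 217, 219.7 and 199 CPM in LIP libraries and 250.3, 251 and 237 CPM in NL libraries. It fell in LIP, with no overlap between groups and a log2 fold change of -0.22 (SE 0.035, edgeR adjusted p = 2.22e-06). With the offset for length and GC content it was still called, at -0.12 (edgeR adjusted p = 0.00116). Nop56 (chr2:130274367-130279313), its partner in the same particle, was at 268, 266 and 249 CPM in LIP libraries and 264, 264 and 252 CPM in NL libraries. Nop56 overlapped between groups and was not called, with a log2 fold change of 0.01 and a 95% interval of -0.06 to 0.08 (edgeR adjusted p = 0.892). The counts of Nop58 divided by those of Nop56 were 0.810, 0.825 and 0.800 in LIP libraries and 0.949, 0.953 and 0.942 in NL libraries. The groups are separate in this ratio, which was chosen with 6 other ratios after the values had been seen, and the exact permutation test gave its smallest possible p of 0.1 (two-sided; 0.14 adjusted over the 7 ratios). Fbl was at 299.7 ± 1.15 CPM in LIP and 296 ± 4.23 CPM in NL, a log2 fold change of 0.02 (edgeR adjusted p = 0.688); with an offset for transcript length it was 0.10 and called (edgeR adjusted p = 0.0112). Dkc1, the pseudouridine synthase of box H/ACA particles, had a log2 fold change of -0.04 (edgeR adjusted p = 0.365). Nolc1, a chaperone of both kinds of snoRNP, had one of 0.08 and was not called (edgeR adjusted p = 0.0819), but without LIP-3 it was 0.11 and called (edgeR adjusted p = 0.0169).

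Npm1 and Ncl encode the abundant nucleolar proteins nucleophosmin and nucleolin, and Npm1 was called. Npm1 (chr11:33152498-33164142) was at 1253, 1291 and 1219 CPM in LIP libraries and 1476, 1497 and 1342 CPM in NL libraries. It fell in LIP with no overlap between groups, a log2 fold change of -0.20 (SE 0.036, edgeR adjusted p = 2.6e-05). With an offset for both transcript length and GC content, the log2 fold change of Npm1 was -0.08 and not called (edgeR adjusted p = 0.0816). Ncl (chr1:86344719-86359455) was at 1102, 1169 and 1048 CPM in LIP libraries and 1101, 1119 and 1090.2 CPM in NL libraries, with overlapping groups and a log2 fold change of 0.0043 (edgeR adjusted p = 0.95). The ratio of Npm1 to Ncl counts was 1.14, 1.10 and 1.16 in LIP libraries and 1.34, 1.34 and 1.23 in NL libraries. The groups again did not overlap (exact permutation p = 0.1, two-sided, 0.14 adjusted over 7 ratios). This ratio carries no offset, and the effective length was 1295 bases for Npm1 and 5863 for Ncl. With the length offset the log2 fold change was -0.15 for Npm1 and -0.05 for Ncl. With the offset for length and GC content it was -0.08 for Npm1 and 0.01 for Ncl. Npm1 made up 17.9% of the summed CPM of the set in LIP and 20% in NL. Its transcript has processed pseudogenes in the mouse. Its deposited counts were whole in every library, which does not show how reads shared with pseudogenes were counted. Their part in the fall of Npm1 was not tested.

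Of the 17 genes of the small-subunit processome and 40S assembly, 3 fell, 1 rose and 13 were not called. Nob1 (chr8:107412489-107425038), the endonuclease that makes the final cut of 18S rRNA, was at 70.3, 72.2 and 69.8 CPM in LIP libraries and 78.9, 79.1 and 83.9 CPM in NL libraries. It fell, with a log2 fold change of -0.19 (SE 0.042, edgeR adjusted p = 0.000362), and its groups were separated by more than the range of the LIP libraries. Imp3, Imp4 and Mphosph10 form a complex on the U3 snoRNA of the processome. Imp3 (chr9:56937500-56938398) was at 78.7, 73.4 and 78.1 CPM in LIP libraries and 85.6, 87.2 and 87.1 CPM in NL libraries. It fell without overlap, with a log2 fold change of -0.18 (SE 0.041, edgeR adjusted p = 0.000618), but was not called with the offset for transcript length, where the log2 fold change was -0.06 (edgeR adjusted p = 0.232). Its partners were not called: Imp4 had a log2 fold change of -0.06 (edgeR adjusted p = 0.34) and Mphosph10 one of -0.11 (edgeR adjusted p = 0.0799), which was -0.15 and called without NL-3 (edgeR adjusted p = 0.0323). The ratio of Imp3 to Imp4 counts was 1.12, 1.07 and 1.08 in LIP libraries and 1.16, 1.25 and 1.15 in NL libraries. The groups did not overlap in this ratio, and in that of Imp3 to Mphosph10 they overlapped (exact permutation p = 0.1 and 0.4, two-sided). These ratios carry no offset, and the effective length was 813 bases for Imp3 and 2164 for Imp4. With the length offset the log2 fold change of Imp4 was -0.06, like that of Imp3. With the offset for length and GC content it was -0.11 for Imp3 and -0.06 for Imp4.

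Emg1, which methylates a modified uridine of 18S rRNA, was at 87.7, 89.1 and 84.7 CPM in LIP libraries and 89.7, 91.6 and 100.0 CPM in NL libraries. Its groups did not overlap, but the call (log2 fold change -0.11, SE 0.041, edgeR adjusted p = 0.0447) was close to the threshold. It was lost when LIP-1, LIP-3, NL-2 or NL-3 was left out, the adjusted p then being 0.0768, 0.15, 0.0674 and 0.422, and in 11 of 17 alternative fits in all. With the length offset Emg1 was at -0.01 (edgeR adjusted p = 0.846). Nop14, a core processome protein, was at 74.0, 71.0 and 68.7 CPM in LIP libraries and 65.6, 68.4 and 63.9 CPM in NL libraries. The groups of Nop14 nearly touch, and its log2 fold change of 0.11 (SE 0.044, edgeR adjusted p = 0.0482) was not called without LIP-1, LIP-2, NL-1 or NL-3, the adjusted p then being 0.22, 0.0848, 0.108 and 0.183. It was lost in 9 of 18 alternative fits, among them the length offset (adjusted p = 0.0817) and DESeq2 (adjusted p = 0.163).

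None of the other processome genes was called. Heatr1, Utp15 and Wdr43, known in yeast as members of a processome module that also affects transcription of ribosomal DNA, had log2 fold changes of 0.03, 0.08 and 0.03, with edgeR adjusted p of 0.589, 0.31 and 0.567. Utp15 was the most variable of these, at 53.1, 63.4 and 58.1 CPM in LIP libraries and 51.6, 55.7 and 58.4 CPM in NL libraries, with overlapping groups. Utp18, Utp20 and Rrp9, the last a protein of the U3 snoRNP, had log2 fold changes of 0.04, 0.05 and -0.07 (edgeR adjusted p of 0.565, 0.336 and 0.31). Nat10, the acetyltransferase of 18S rRNA, had one of 0.04 (edgeR adjusted p = 0.469).

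Among factors of late 40S assembly and export, Rrp12 had a log2 fold change of 0.01 (edgeR adjusted p = 0.885) and Ltv1 one of -0.03 (edgeR adjusted p = 0.703). Tsr1 was at 90.7, 92.1 and 90.8 CPM in LIP libraries and 85.2, 88.5 and 85.9 CPM in NL libraries, separated but not called (log2 fold change 0.08, edgeR adjusted p = 0.141). Bysl was at 52.4, 54.5 and 54.0 CPM in LIP libraries and 51.3, 52.3 and 50.4 CPM in NL libraries, where LIP-1 lies just above NL-2 (log2 fold change 0.06, edgeR adjusted p = 0.32). Tsr1 shares 1159 exonic bases with Srr and Bysl 361 with Ccnd3 on the opposite strand, and whether the counting used strand is not given in the sources.

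The 10 genes of 60S assembly held 3 rises and 3 falls. Bop1, Pes1 and Wdr12 form the PeBoW complex of large-subunit processing. Bop1 (chr15:76452988-76477249) was at 109, 109 and 112 CPM in LIP libraries and 117, 123 and 122 CPM in NL libraries. It fell with no overlap (log2 fold change -0.14, SE 0.037, edgeR adjusted p = 0.00355), and was not called with scaling by total counts alone, at -0.09 (edgeR adjusted p = 0.0545). Wdr12 was at 82.8, 83.6 and 81.8 CPM in LIP libraries and 87.0, 87.3 and 88.9 CPM in NL libraries, apart in the same direction but not called (log2 fold change -0.08, edgeR adjusted p = 0.0996). Pes1 was at 173, 184 and 179 CPM in LIP libraries and 181, 182 and 186 CPM in NL libraries, with overlap and a log2 fold change of -0.04 (edgeR adjusted p = 0.463). The ratio of Bop1 to Pes1 counts was 0.630, 0.591 and 0.625 in LIP libraries and 0.648, 0.675 and 0.655 in NL libraries, without overlap (exact permutation p = 0.1, two-sided, 0.14 adjusted over 7 ratios), and that of Wdr12 to Pes1 overlapped (exact permutation p = 0.3).

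Gnl3 (chr14:31012433-31019131) encodes nucleostemin, a nucleolar GTPase known from stem and cancer cells. It was at 117, 109 and 106 CPM in LIP libraries and 122, 124 and 121 CPM in NL libraries. Gnl3 fell with no overlap, by 0.15 on the log2 scale (SE 0.038, edgeR adjusted p = 0.00163). Nip7, an RNA-binding factor of 60S assembly, was at 58.0, 54.2 and 56.7 CPM in LIP libraries and 56.5, 62.8 and 63.9 CPM in NL libraries. NL-1 lies within the LIP range, and the call of Nip7 (log2 fold change -0.12, SE 0.047, edgeR adjusted p = 0.0495) was lost in 13 of 17 alternative fits. Among these were the fits without LIP-2, LIP-3, NL-2 or NL-3, the adjusted p then being 0.202, 0.064, 0.219 and 0.268.

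The 3 rises of this group were Ddx21, Rrp1b and Rrs1. Ddx21 (chr10:62580247-62602298), an RNA helicase of rRNA transcription and processing, was at 295, 307 and 288 CPM in LIP libraries and 274, 269.7 and 278 CPM in NL libraries. It was above NL in every library, with a log2 fold change of 0.12 (SE 0.033, edgeR adjusted p = 0.00469), and was not called without LIP-2, at 0.09 (edgeR adjusted p = 0.0548). With the length offset it was 0.08 and called (edgeR adjusted p = 0.0479). Rrp1b (chr17:32036162-32062865), a nucleolar partner of protein phosphatase PP1, was at 89.9, 85.9 and 87.0 CPM in LIP libraries and 84.7, 76.7 and 76.0 CPM in NL libraries. NL-1 comes close to the LIP libraries, and the log2 fold change was 0.15 (SE 0.042, edgeR adjusted p = 0.00557), or 0.13 and not called without NL-2 (edgeR adjusted p = 0.0534), and 0.07 and not called with the offset for length and GC content (edgeR adjusted p = 0.165). Rrs1 (chr1:9545408-9547455), known in yeast for placing the 5S particle in the large subunit, was at 71.0, 71.4 and 74.9 CPM in LIP libraries and 65.3, 69.2 and 66.4 CPM in NL libraries. Its groups did not overlap and its log2 fold change was 0.11 (SE 0.043, edgeR adjusted p = 0.0383), but the call was lost without LIP-3, NL-1 or NL-3, the adjusted p then being 0.158, 0.137 and 0.0942, with DESeq2 (adjusted p = 0.139) and with the offset for length and GC content (edgeR adjusted p = 0.154). Nop2, the cytosine methyltransferase of 28S rRNA, had a log2 fold change of 0.02 (edgeR adjusted p = 0.694), and Nop16, a 60S assembly factor known from yeast, one of 0.08 (edgeR adjusted p = 0.188). Neither was called, although Nop16 was with scaling by total counts alone, at 0.13 (edgeR adjusted p = 0.0314).

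**Figure D3:**
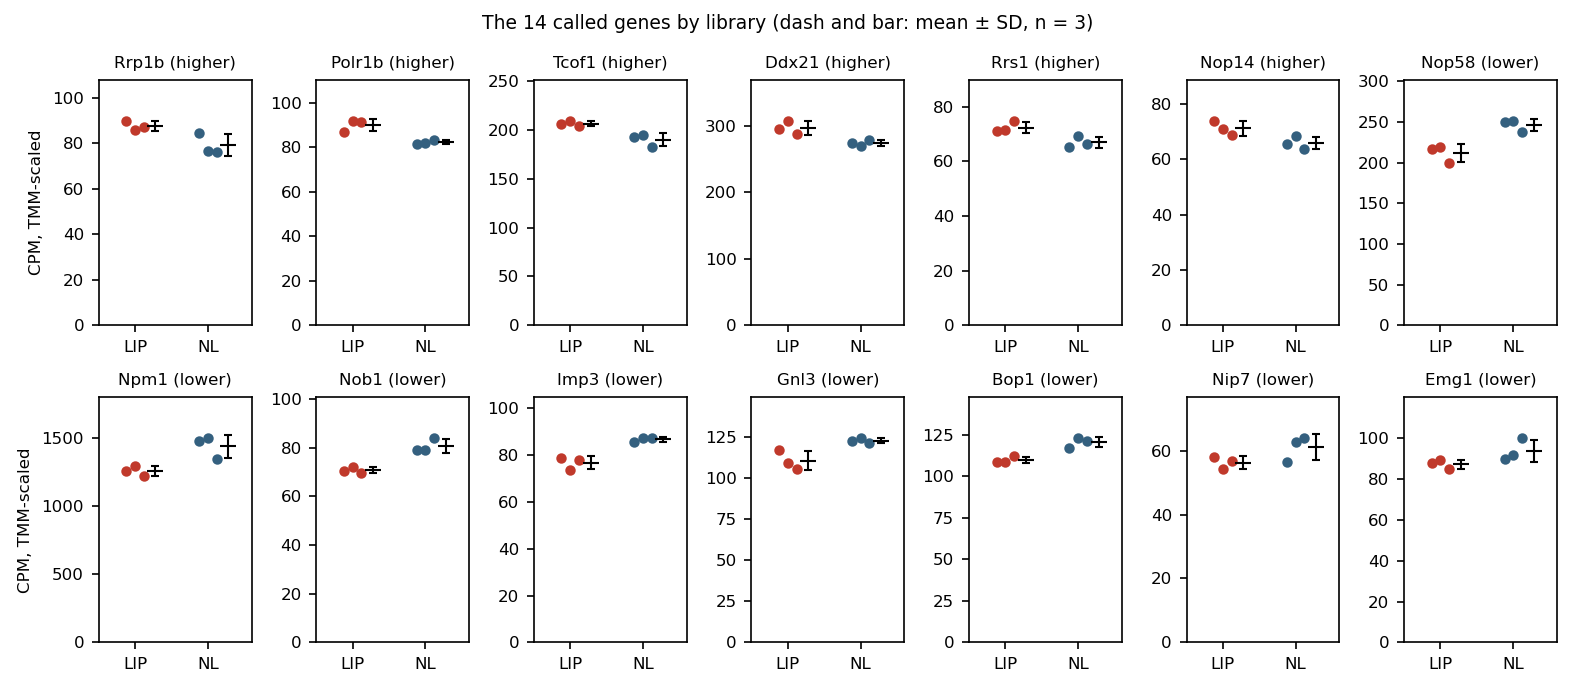
TMM-scaled CPM of the 14 called genes in each library, LIP left of NL, with a dash and bar for mean ± SD (n = 3) and axes from 0. The upper row starts with the 6 genes called higher, and the genes called lower follow from Nop58, the largest fall; Nip7 is the gene in which the groups overlap.

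The called rises and falls differed in transcript length. The 6 genes that rose had a median effective length of 4184 bases, ranging between 1963 and 4661, and the 8 that fell had a median of 1701 bases, ranging between 813 and 2950. The 25 uncalled genes had a median of 2576 bases. The whole table showed the same order. Of tested genes under 1500 bases, 5.50% were called higher and 33.2% lower, and of those over 3000 bases, 19.8% were called higher and 9.66% lower. Of tested genes from 1500 to 3000 bases, 11.7% were called higher and 14.3% lower, with a median log2 fold change of -0.0005. Of the set, 5 genes were under 1500 bases, with 0 higher and 3 lower, and 16 were over 3000 bases, with 4 higher and 0 lower. The 18 genes of the set from 1500 to 3000 bases held 2 of the 6 rises and 5 of the 8 falls. With an offset for the length trend, 5 of the 6 rises and 6 of the 8 falls were still called. With an offset for length and GC content together, 1 of the 6 rises, Ddx21, and 5 of the 8 falls were still called. The falls called with the combined offset were those of Nop58, Nob1, Imp3, Bop1 and Gnl3. Of these, Imp3 was not called with the length offset alone. Of the 14 calls, those of Nop58, Nob1 and Gnl3 were kept in every alternative run.

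**Figure D4:**
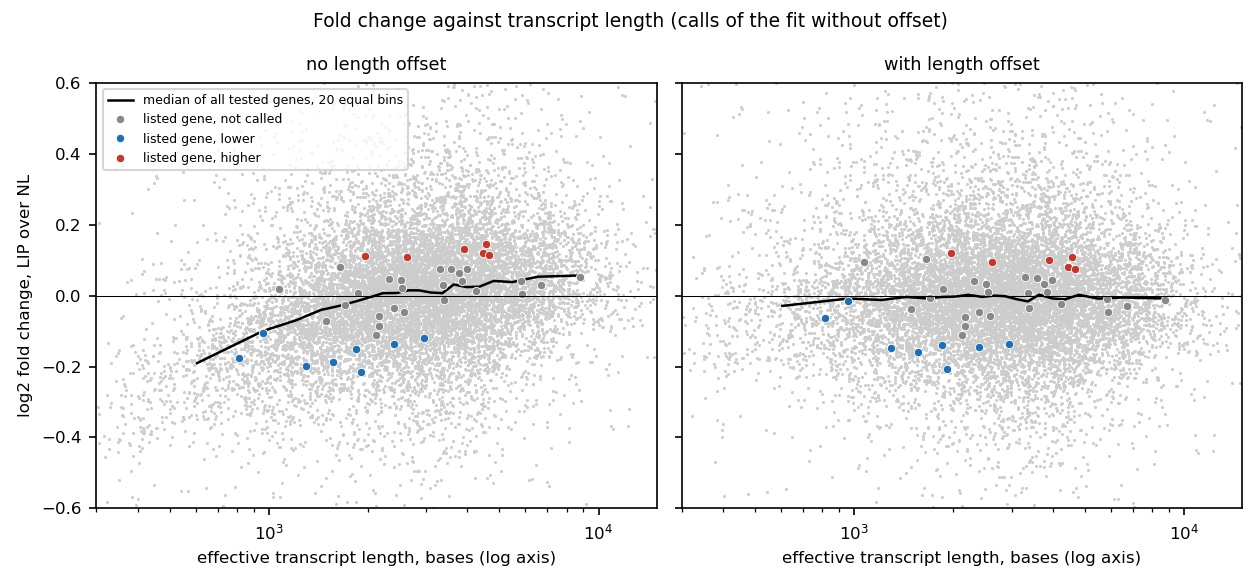
Log2 fold change, LIP over NL, against effective transcript length on a log axis, without an offset (left) and with the length offset (right). Grey dots are all tested genes within the plotted range, the black line their median in 20 equal bins, and large points the listed genes; without the offset the called falls lie between 813 and 2950 bases and the called rises between 1963 and 4661.

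The other genes of the pathway were read from 8 lists that held none of the 39 genes, and their counts stand beside 14.1% of all tested genes called higher and 15.8% called lower. By the rule in the methods, 28 genes of these lists could be named and kept their call in every alternative. Of these, 21 are given in the text with an adjusted p, Mycn among them, and the rest are not. Of 17 other genes of the RNA polymerase I machinery, 8 fell and 0 rose, with a median log2 fold change of -0.09, and 4 fell with the length offset. The median effective length of this list was 1654 bases. The genes that fell included Taf1d, a subunit of the promoter selectivity factor (log2 fold change -0.22, edgeR adjusted p = 9.28e-06), and Polr2f and Polr2l, small subunits shared by the nuclear RNA polymerases (log2 fold changes of -0.38 and -0.25, edgeR adjusted p of 0.000581 and 3.85e-05). Of 46 other small-subunit assembly factors, 4 rose and 8 fell (median -0.03). The counts were 9 and 5 with total counts alone, and 1 and 6 with the offset for length and GC content. Utp11 fell by 0.30 and Ngdn by 0.26 on the log2 scale, while Nol10 rose by 0.23 (edgeR adjusted p of 6.97e-07, 1.8e-05 and 0.00145). Of 56 other large-subunit factors, 7 rose and 13 fell (median -0.0014). The counts were 11 and 7 with total counts alone, and 4 and 10 with the offset for length and GC content. Nsa2 and Npm3, a relative of Npm1, both fell by 0.26, and Nol9, a kinase that acts on the spacer between 5.8S and 28S rRNA, rose by 0.26 (edgeR adjusted p of 4.02e-08, 9.59e-08 and 1.8e-06).

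Of 15 other snoRNP genes, 2 fell and 0 rose (median -0.07). Nop10, a core protein of box H/ACA particles like Dkc1, was at 152 ± 8.6 CPM in LIP and 193 ± 2.47 CPM in NL (SD, n = 3 each), a log2 fold change of -0.35 (edgeR adjusted p = 1.75e-11). Of 22 genes of the RNA exosome and rRNA nucleases, 1 rose and 6 fell (median -0.07). Rpp30, a protein of RNase P and RNase MRP, fell by 0.36, and the exonuclease gene Xrn2 rose by 0.12 (edgeR adjusted p of 4.34e-06 and 0.00474). Of 16 tested MYC partners, antagonists and turnover genes, 3 rose and 4 fell (median -0.01). Mnt, which encodes a MAX-binding repressor that opposes MYC, rose to 54.2 ± 2.65 CPM in LIP, against 44.0 ± 2.50 CPM in NL (log2 fold change 0.30, edgeR adjusted p = 3.21e-06). Mnt and Mycn do not stand for the whole list. Its genes Mxd1 and Mlx were lower in every alternative fit (log2 fold changes of -0.27 to -0.16 and -0.21 to -0.15). Huwe1 and Mlxip were higher in every alternative fit (0.11 to 0.23 and 0.07 to 0.21).

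Of 24 known MYC target genes outside the nucleolus, 11 fell and 3 rose (median -0.07). These counts stand beside 15.8% lower and 14.1% higher of all tested genes. They were 8 and 2 with the length offset, 10 and 2 with the offset for length and GC content, and 6 and 3 with total counts alone. The heat shock gene Hspe1 fell by 0.33 (edgeR adjusted p = 1.36e-09) and the transferrin receptor gene Tfrc by 0.18 (edgeR adjusted p = 0.00015). The hexokinase gene Hk2 rose by 0.33 (edgeR adjusted p = 4.78e-07) and the coactivator gene Pprc1 by 0.29 (edgeR adjusted p = 2.21e-08). Of 23 cell cycle genes, 4 fell and 1 rose (median -0.02). The counts were 6 and 1 with the offset for length and GC content, and 3 and 4 with total counts alone. Pcna, the replication clamp gene, fell by 0.25 and Ccne2 by 0.36, while the mitotic kinase gene Aurkb rose by 0.23 (edgeR adjusted p of 6.77e-09, 1.8e-07 and 1.01e-05).

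Of the falls given with an adjusted p in the 8 lists, 9 were smaller by over 1.5 times with an offset. With the length offset the log2 fold change of Polr2f was -0.19 and that of Npm3 was -0.14. With the offset for length and GC content it was -0.11 for Taf1d, -0.15 for Utp11, -0.19 for Nop10, -0.24 for Rpp30, -0.17 for Hspe1, -0.16 for Pcna and -0.23 for Ccne2. The other genes given with an adjusted p in the 8 lists moved by less than 1.5 times in every alternative.

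**Figure D5:**
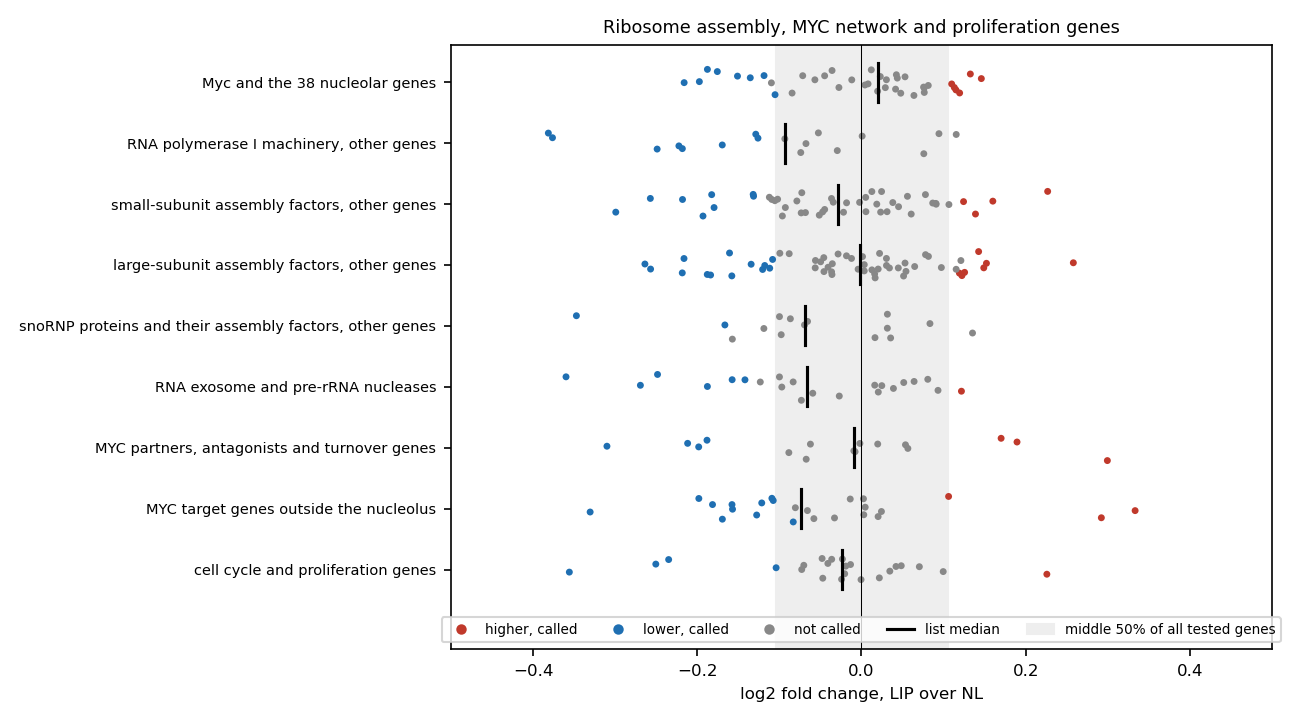
Log2 fold change, LIP over NL, of the 39 genes and of the genes in the 8 other lists, 1 point a gene, with the list median as a black line and the middle 50% of all tested genes as a grey band. The medians lie between -0.09, for the other RNA polymerase I genes, and 0.02, for Myc and the nucleolar genes, all within the band.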

How the data were processed

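Messenger RNA of 6 libraries was sequenced as 100 bp paired-end reads after poly(A) selection, on average 45.0 M reads each, per the labels' protocols. The deposited table held the authors' estimated counts, FPKM and TPM. The submitters' processing notes name STAR, HTSeq and GRCm38; which tool made the estimated counts is not stated in them. The deposited estimated counts were not whole for part of the genes: 31 of the 39 genes had whole counts in every library, and Polr1b, Fbl, Dkc1, Bysl, Tsr1, Emg1, Rrp1b and Nip7 did not, which makes these 8 less certain. Exons of 12 of the 39 genes overlap an exon of a gene on the opposite strand by 5 to 1159 bases. Whether the counting kept reads of the 2 strands apart is not given in the sources. Of these 12, Nop14, Bop1, Emg1, Rrp1b and Gnl3 were called.

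Counts were rounded, because a test for whole counts was planned, filtered with filterByExpr, scaled with TMM factors and tested with edgeR 4.0.16 (quasi-likelihood, robust, group as the only term; R 4.3.3). P-values were Benjamini-Hochberg adjusted over 12564 genes, with calls made below 0.05. CPM are TMM-scaled. SEs and 95% intervals come from the test statistic. Effective length was derived from the deposited FPKM and counts, and GC content from the longest GENCODE M21 transcript (98.5% of tested genes). Offsets were lowess curves with a span of 0.3. No libraries were near-duplicates. The 39 genes and all lists were chosen with earlier results of these data known. Of each pathway list, up to 4 called genes by smallest p and up to 2 by largest change without overlap could be named, which gave 42 genes; 28 kept their call in every alternative. Gene positions and promoter windows are from RefSeq, matched by gene identifier or symbol. Alternatives were DESeq2 1.42.0, limma-voom 3.58.1, other scaling and filters, whole-count genes only, the offsets, a replicate block, non-robust estimation, and fits with each library left out. Same-numbered libraries of the 2 groups did not deviate together, so the numbers were not used as pairs.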

Additional observations from a re-analysis of the deposited data

How the results depend on the processing

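Over all tested genes, 3760 were called in the edgeR fit, 2376 with DESeq2 and 2987 to 3397 when a library was left out. The count of higher members was 10 with total counts alone, 1 with the offset for length and GC content, and 3 to 6 with a library left out, the 3 without NL-3. The count of lower members was 5 with total counts alone and 6 to 8 with a library left out. The median log2 fold change of the 39 genes was 0.064 with total counts alone. It was -0.0094 with the length offset, -0.0063 with the offset for length and GC content, and 0.0098 to 0.023 with a library left out. The cause was not tested. Of 694 alternative fits of single genes, 613 kept direction and call, 46 lost a call, 8 gained one and 27 changed sign.

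Emg1 was the one called gene among the sign changes. With total counts alone Ubtf was 0.033, Ltv1 0.017 and Pes1 0.0086. With the length offset Polr1a was -0.0094, Ncl -0.047, Rrp12 -0.023, Utp20 -0.013, Heatr1 -0.029 and the marker Ly6a 0.037. With the offset for length and GC content Polr1a was -0.032, Rrp12 -0.073, Utp20 -0.0063, Heatr1 -0.028, Bysl -0.0072, Ltv1 0.013, Nat10 -0.013, Emg1 0.0032, Nop2 -0.035, Wdr12 0.0056 and Ly6a 0.034. With a library left out the range was -0.029 to 0.020 for Ubtf, -0.012 to 0.041 for Nop56, -0.037 to 0.042 for Ncl, -0.00053 to 0.056 for Wdr43, -0.030 to 0.050 for Rrp12 and -0.048 to 0.010 for Ltv1.

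In their deviations from the group means, libraries of the same number correlated at 0.021, -0.0050 and -0.10. No LIP library correlated best with the NL library of its own number. Among the NL libraries, NL-1 alone correlated best with its own number. With the replicate number as a block, all genes called came to 3729, and members called came to 6 higher and 7 lower. The counting precision of a gene depends on its own count, and the 39 genes had 753 to 26375 counts in a library. Library totals were 17780810 to 18841090.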
